A study of Mus musculus with 59 samples.

Results

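The change in gene expression from embryonic stem cells (ESCs) to embryoid bodies (EBs) was measured in mouse cells without *Pcgf1*. The members are the 5 *Pcgf1*-KO EB and the 5 *Pcgf1*-KO ESC libraries, 10 of the 59 poly(A) RNA-seq libraries of the series, chosen by the genotype and cell type in the names of the deposited files, which match the sample labels. The 5 control EB and 4 control ESC libraries of the same line, 19 libraries in all, served as the comparison. *Pcgf1*-KO cells carry the labels ERT2-Cre;Pcgf1delta/delta and with 4-OHT (4-hydroxytamoxifen, which switches on the Cre recombinase fused to ERT2), and control cells ERT2-Cre;Pcgf1f/f and without 4-OHT. Loss of *Pcgf1* and exposure to 4-OHT therefore cannot be told apart, and both groups carry ERT2-Cre. ESCs were grown with LIF on feeders, which are mouse embryonic fibroblasts (MEFs), and the inhibitors SU5402 (FGF receptor), PD184352 (MEK) and CHIR99021 (GSK3). Per the study's methods, *Pcgf1* was deleted 2 days before EB formation. EBs were aggregates formed over 2 days on low attachment dishes after withdrawal of LIF and all 3 inhibitors. The *Pcgf1* line is 1 ESC line with an inducible deletion, and nothing in the labels says that the replicates were separate derivations, so p-values measure the spread between these libraries only.

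PCGF1 is the subunit that defines one variant form of Polycomb repressive complex 1 (PRC1). With KDM2B, which binds unmethylated CpG-rich DNA, and BCOR, it brings the ubiquitin ligase RING1A or RING1B to CpG islands, where H2A is mono-ubiquitinated and Polycomb repressive complex 2 can follow. In the culture used, LIF and the inhibitors hold ESCs in the naive state. On their withdrawal cells leave this state, switch off naive factors such as *Klf4* and *Tbx3*, switch on formative epiblast genes such as *Fgf5*, *Otx2* and *Dnmt3b*, and keep the core factors *Pou5f1* and *Sox2* before any germ layer is chosen.

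Values are TPM (shares of transcripts, corrected for transcript length and scaled to the same total in each library), and tests were run with limma on log2(TPM + 0.1) with the replicate number as a block, over the 20594 genes that any of the 19 libraries lists above 0. A gene was called when its adjusted p (Benjamini-Hochberg, over all these genes) was below 0.05. Every fold change below is on the log2(TPM + 0.1) scale, which understates the change of genes with low values. Read depth is unknown from TPM. Each *Pcgf1*-KO library listed 12406 to 13176 genes at 1 TPM or more. The libraries fall into 3 series by the numbers in the file headers, with replicate 1 in the first, replicates 2 and 3 in the second and replicates 4 and 5 in the last. The numbers of the last series carry 2 prefixes but run on and were merged, and the prefix shared by an ESC and an EB library without *Pcgf1* is not that of the shared replicate number, so the block does not follow it. Replicates 4 and 5 of a group were unusually close. Over genes with a mean of at least 50 TPM their median absolute log2 difference was 0.0410 to 0.0693, against 0.108 to 0.186 for replicates 2 and 3 and 0.227 to 0.654 for all other replicate pairs. Whether close replicates are separate cultures is not stated, so counts are also given with replicates averaged within each series, which leaves 3 values per group. Control ESCs have no replicate 5, so for control values and for differences from control the block fit stands in for it from the other groups.

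The targeted gene was checked first. *Pcgf1*, which encodes PCGF1 itself, was at 0.835, 1.06, 0.627, 2.77 and 1.65 TPM in *Pcgf1*-KO ESCs (replicates 1 to 5, the order used throughout) and at 0.978, 1.53, 1.09, 2.47 and 2.32 TPM in *Pcgf1*-KO EBs. Control ESCs were at 10.7 to 13.6 TPM and control EBs at 7.30 to 16.6 TPM. Every *Pcgf1*-KO library was below every control library, and the change from ESCs to EBs without *Pcgf1* did not pass the test (log2 fold change 0.34 ± 0.24 (SE), limma adjusted p = 0.29).

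Without *Pcgf1*, 3453 genes (16.8% of those tested) rose and 4120 (20%) fell from ESCs to EBs. With a log2 fold change beyond 1 as well, 1357 rose and 1787 fell, and beyond 2 these numbers were 457 and 618. With replicates averaged within series, 2432 genes were higher and 3232 lower, and without the replicate block 1674 and 2096. In bulk RNA, fewer cells of a type and less RNA per cell cannot be told apart. Of the gene lists described below, formative epiblast genes had the highest median log2 fold change (3.19), and immediate early (-3.57), LIF-STAT3 (-2.5) and fibroblast genes (-2.25) the lowest. These lists were chosen with earlier results of the data known. In the control, 4255 genes (20.7%) rose and 4795 (23.3%) fell. Of the genes that rose without *Pcgf1*, 2711 also rose in the control, which is 78.5% of the *Pcgf1*-KO list and 63.7% of the control list. Of those that fell, 3239 were shared, which is 78.6% of the *Pcgf1*-KO list and 67.5% of the control list. Only 13 genes that rose in the control fell without *Pcgf1*, and 22 moved in the opposite way. Across all genes tested the 2 changes had a Pearson r of 0.79 and a Spearman rho of 0.73, given as a description, since genes are not independent replicates and the libraries of a replicate number share a series.

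**Figure D1:**
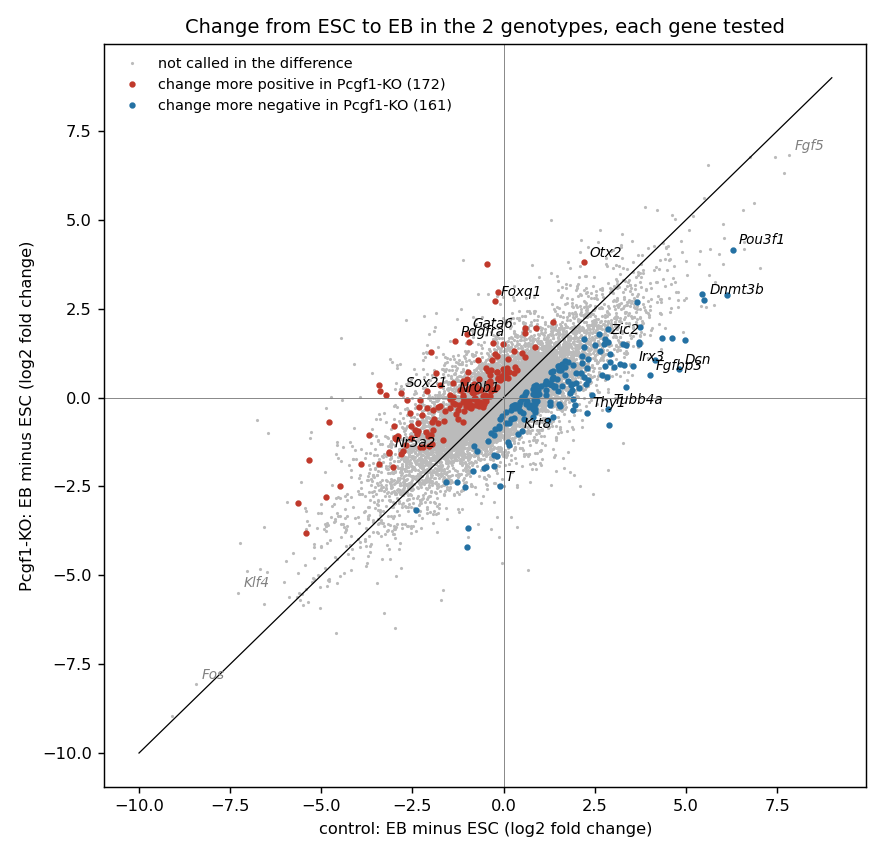
Log2 fold change from ESCs to EBs in control (horizontal) and Pcgf1-KO cells (vertical), 1 point per gene tested (20594), on the log2(TPM + 0.1) scale. The 172 genes with a more positive and the 161 with a more negative change in Pcgf1-KO cells are coloured, the diagonal marks equal changes, and most genes lie along it.

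Because PCGF1-PRC1 acts at CpG-rich gene starts, the 250 bases before the start of transcription are shown for 4 genes on which the results turn. *Klf4* is a naive factor that fell without *Pcgf1*, *Nr0b1* is one that did not pass the test, *Dnmt3b* is a formative gene that rose, and *Trh* (thyrotropin-releasing hormone) rose in the control and did not pass the test without *Pcgf1*. On mm9, the build of the authors' alignment, these genes lie on chromosome 4 from 55540013 to 55545347, on X from 83437103 to 83441286, on chromosome 2 from 153475186 to 153513466 and on chromosome 6 from 92192055 to 92194644. Capitals mark CG, the one motif searched, which reads the same on both strands. The sequences are those of RefSeq on another build, GRCm38.p6, 5′ to 3′ on the strand of the gene, upstream of the first exon, at chr4:55532476-55532725 (minus strand), chrX:86191525-86191774 (plus), chr2:153649199-153649448 (plus) and chr6:92244651-92244900 (minus).
Klf4: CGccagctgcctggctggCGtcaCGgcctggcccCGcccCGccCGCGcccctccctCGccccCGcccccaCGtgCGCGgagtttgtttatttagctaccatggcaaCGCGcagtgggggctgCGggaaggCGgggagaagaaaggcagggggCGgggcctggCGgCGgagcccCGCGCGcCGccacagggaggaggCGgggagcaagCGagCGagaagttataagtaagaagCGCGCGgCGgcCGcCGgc
Nr0b1: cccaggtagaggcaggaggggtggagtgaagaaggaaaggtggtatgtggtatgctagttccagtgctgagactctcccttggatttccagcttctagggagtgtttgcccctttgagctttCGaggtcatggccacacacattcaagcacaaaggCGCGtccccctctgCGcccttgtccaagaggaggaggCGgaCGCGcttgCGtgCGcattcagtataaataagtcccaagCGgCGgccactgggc
Dnmt3b: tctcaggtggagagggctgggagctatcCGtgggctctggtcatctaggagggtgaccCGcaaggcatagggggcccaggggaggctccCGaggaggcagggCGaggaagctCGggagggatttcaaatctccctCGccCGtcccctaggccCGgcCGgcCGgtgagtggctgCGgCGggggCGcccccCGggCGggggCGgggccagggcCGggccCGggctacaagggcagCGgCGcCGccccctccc
Trh: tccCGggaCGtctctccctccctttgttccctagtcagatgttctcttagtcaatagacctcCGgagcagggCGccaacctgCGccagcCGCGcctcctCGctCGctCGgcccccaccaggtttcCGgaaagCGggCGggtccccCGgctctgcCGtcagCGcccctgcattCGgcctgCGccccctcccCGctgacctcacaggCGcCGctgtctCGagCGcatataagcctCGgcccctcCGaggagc
These stretches hold 32, 11, 21 and 25 CG for *Klf4*, *Nr0b1*, *Dnmt3b* and *Trh*. Of all 32851 promoters of this RefSeq set, 92.1% hold at least 1 CG in these 250 bases and the median is 6. Over the 14873 genes tested that have an entry the median is 12, and *Nr0b1* lies just below it and the other genes above it. Over the 9876 of these with a mean of at least 1 TPM the median is 16 (quartiles 10 and 23). *Nr0b1* and *Dnmt3b* lie between these quartiles. All 4 genes matched an entry.

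Formative epiblast genes rose almost as a whole. The list was chosen with earlier results of these data known and holds *Sox4* and *Grhl2*, which the study reports as rising. Its rise is therefore not independent evidence. Of 18 genes in the list, 17 rose (94.4%, against 16.8% of all genes tested) and none fell. The median log2 fold change was 3.19 against 0.00 for all genes tested, and 17 also rose with replicates averaged within series. *Tead2*, a partner of YAP, was the exception (log2 fold change 0.22 ± 0.10 (SE), limma adjusted p = 0.105). *Fgf5*, a growth factor of the early epiblast, was at 0, 0.185, 0.438, 0.0604 and 0 TPM in ESCs and at 25.1, 41.2, 45.8, 11.2 and 8.46 TPM in EBs. All EB libraries were far above all ESC libraries, and those of replicates 4 and 5 were the lowest of the EBs (log2 fold change 6.83 ± 0.43 (SE), limma adjusted p = 2.2e-08). *Otx2*, a homeobox factor that redirects enhancers on exit from the naive state, rose from 2.63, 7.60, 7.17, 4.74 and 3.77 TPM to 49.5, 103, 67.8, 69.1 and 63.1 TPM (log2 fold change 3.80 ± 0.21 (SE), limma adjusted p = 7.41e-09). *Dnmt3a*, a de novo DNA methyltransferase, rose from 7.90, 19, 19.8, 11.3 and 11.1 TPM to 200.1, 474, 456, 146 and 155 TPM (log2 fold change 4.26 ± 0.15 (SE), limma adjusted p = 1.09e-10). The groups of these genes do not overlap.

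*Dnmt3b*, the other de novo methyltransferase, rose with a wide spread. It was at 52.1, 92.2, 96.7, 83.3 and 86.7 TPM in *Pcgf1*-KO ESCs and at 507, 1371, 1447, 209 and 226 TPM in EBs (log2 fold change 2.76 ± 0.37 (SE), limma adjusted p = 3.86e-05). Replicates 2 and 3 reached levels several times those of replicates 4 and 5 in EBs. *Pou3f1*, a POU factor also known as Oct6, rose from 2.83, 6.91, 5.28, 4.72 and 4.55 TPM to 88.2, 227, 193, 34.0 and 34.0 TPM, again with the lowest EB values in replicates 4 and 5 (log2 fold change 4.16 ± 0.32 (SE), limma adjusted p = 1.78e-07). *Zic2*, a zinc finger factor of primed enhancers, rose from 14.7, 31.5, 30.7, 20.3 and 17.7 TPM to 43.4, 113, 90.2, 59.5 and 58.4 TPM (log2 fold change 1.64 ± 0.08 (SE), limma adjusted p = 2.72e-09). *Sox4*, an SRY-related factor, rose from 4.78, 24.3, 18.6, 8.75 and 9.82 TPM to 77.9, 215, 155, 84.1 and 77.0 TPM (log2 fold change 3.28 ± 0.14 (SE), limma adjusted p = 4.06e-10). *Grhl2*, which switches on epithelial genes in the epiblast, rose from 3.39, 6.17, 6.76, 2.90 and 3.42 TPM to 26, 65.5, 64.9, 25.5 and 25.4 TPM (log2 fold change 3.09 ± 0.14 (SE), limma adjusted p = 7.24e-10). For both, the *Pcgf1*-KO EB libraries overlapped the control EBs (62.0 to 228 TPM and 23.9 to 57.4 TPM).

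**Figure D2:**
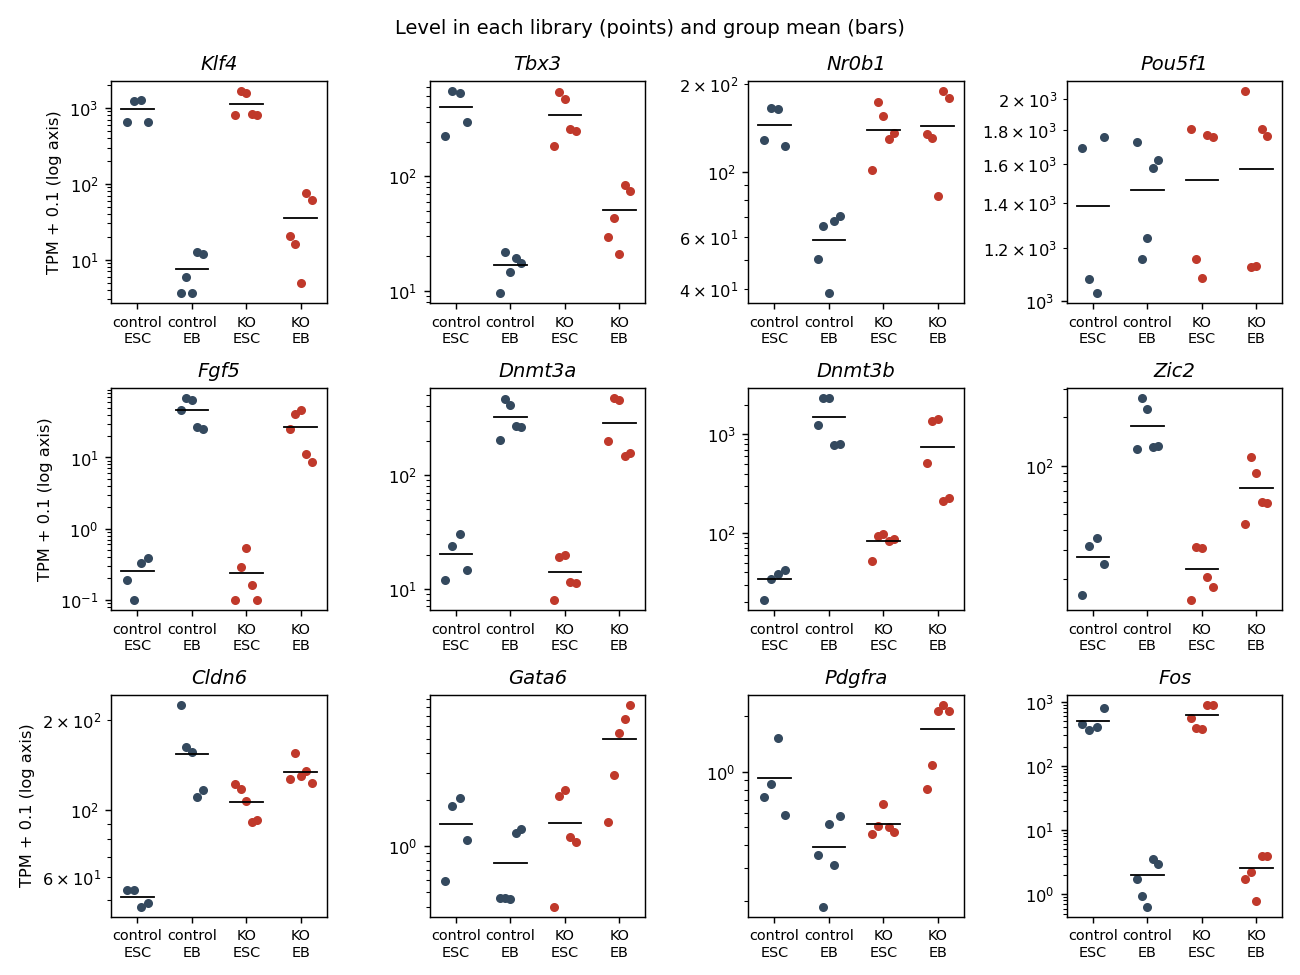
Level of 12 genes in each library (points, replicates in order from left to right) and the group mean (bars), as TPM + 0.1 on a log axis, in control and Pcgf1-KO ESCs and EBs. Fgf5 and Dnmt3a rise in both genotypes, Klf4 and Fos fall in both, and Nr0b1 is at 82.7 to 188 TPM in Pcgf1-KO EBs against 38.5 to 70.8 TPM in control EBs.

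Naive pluripotency genes fell, with exceptions. Of 16 genes, 12 fell (75%, against 20% of all genes tested), 1 rose (6.25%, against 16.8%) and 3 did not pass the test. The median log2 fold change was -1.68, and the numbers were the same with replicates averaged within series. *Klf4*, a Krüppel-like factor downstream of LIF, was at 801, 1664, 1554, 821 and 811 TPM in ESCs and at 20.2, 15.8, 4.85, 74.6 and 62.0 TPM in EBs (log2 fold change -5.49 ± 0.55 (SE), limma adjusted p = 2.35e-06). The EB libraries of replicates 4 and 5 kept the highest *Klf4*, and the groups do not overlap. *Tbx3*, a T-box factor of the naive network, fell from 183, 549, 478, 259 and 250.3 TPM to 29.6, 43.5, 20.9, 84.7 and 74.8 TPM (log2 fold change -2.83 ± 0.33 (SE), limma adjusted p = 8.61e-06). *Esrrb*, a nuclear receptor that maintains self-renewal, fell from 274, 611, 620.2, 349 and 340.3 TPM to 105, 156, 85.7, 221 and 203 TPM (log2 fold change -1.52 ± 0.30 (SE), limma adjusted p = 0.000936). *Nanog* fell from 605 to 836 TPM to 100.4 to 352 TPM (log2 fold change -1.81 ± 0.24 (SE), limma adjusted p = 2.72e-05).

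The genes of this list that did not pass the test were *Nr0b1*, *Prdm14* and *Dppa3*, and *Fgf4* rose. *Nr0b1*, the nuclear receptor DAX1, was at 101, 173, 155, 129.8 and 136 TPM in *Pcgf1*-KO ESCs and at 135, 131, 82.7, 188 and 178 TPM in EBs, and the groups overlap (log2 fold change 0.01 ± 0.19 (SE), limma adjusted p = 1). In the control the same gene went from 128, 165, 163 and 122 TPM to 50.4, 65.2, 38.5, 68.1 and 70.8 TPM (log2 fold change -1.38 ± 0.20 (SE), limma adjusted p = 6.57e-05). *Fgf4*, the autocrine signal that pushes ESCs towards differentiation, rose from 142, 185, 193, 139 and 138 TPM to 182, 295, 244, 270.4 and 259.6 TPM (log2 fold change 0.65 ± 0.13 (SE), limma adjusted p = 0.00142), while it fell in the control (log2 fold change -0.38 ± 0.14 (SE), limma adjusted p = 0.0429). In every *Pcgf1*-KO pair the EB library of *Fgf4* was above its ESC library, although the groups overlap.

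Core pluripotency genes did not fall. Of 10 genes, 7 rose (70%, against 16.8% of all genes tested) and 3 did not pass the test, and the median log2 fold change was 0.55. With replicates averaged within series, 6 rose. In the control 5 rose and 1 fell, with a median of 0.21. *Pou5f1* (OCT4) ranged from 1081 to 1803 TPM over the ESCs without *Pcgf1* and from 1121 to 2055 TPM over the EBs (log2 fold change 0.05 ± 0.07 (SE), limma adjusted p = 0.632). Replicates 2 and 3 were the lowest in both cell types. *Sox2* was at 404 to 653 TPM and 350.5 to 605 TPM (log2 fold change -0.08 ± 0.17 (SE), limma adjusted p = 0.765). *Utf1*, a chromatin factor of undifferentiated cells, rose from 226, 442, 419.7, 346 and 328 TPM to 759.7, 1278, 889, 1262 and 1101 TPM (log2 fold change 1.60 ± 0.10 (SE), limma adjusted p = 3.04e-08). *Lin28a*, which blocks let-7 processing, rose with the replicate block (log2 fold change 0.86 ± 0.13 (SE), limma adjusted p = 9.93e-05) and did not pass without it.

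**Figure D3:**
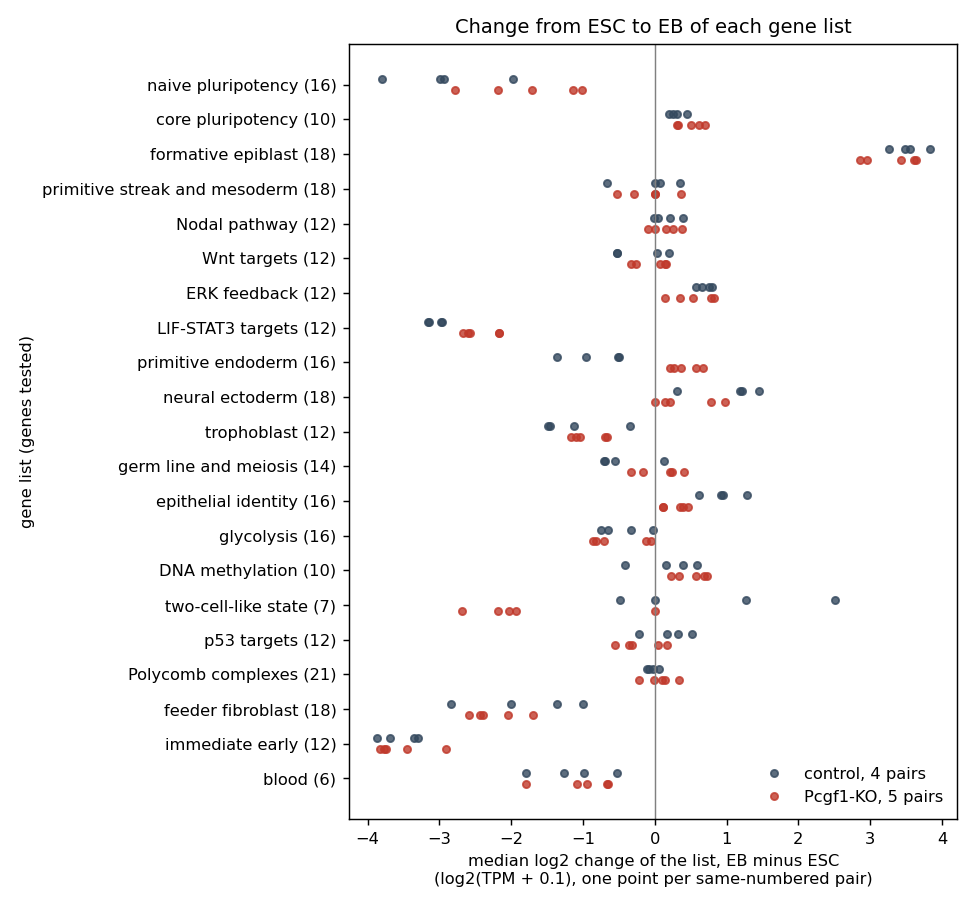
Median log2 change from ESCs to EBs of each gene list (number of genes tested in parentheses), 1 point per same-numbered pair of libraries, for control (4 pairs) and Pcgf1-KO (5 pairs). In Pcgf1-KO pairs the formative list lies between 2.86 and 3.63 and the naive list between -2.78 and -1.02.

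Genes of the primitive streak and mesoderm changed in shares near the background. Of 18 primitive streak and mesoderm genes, 4 rose (22.2%, against 16.8% of all genes tested), 5 fell (27.8%, against 20%) and 9 did not pass the test, with a median log2 fold change of 0.06 (with replicates averaged within series, 2 rose and 5 fell). Many members were low, with the median gene at 0.491 to 0.755 TPM in *Pcgf1*-KO ESCs. Over members with a mean of at least 1 TPM the median log2 fold change was -1.03. The summed level of the list went from 114 to 218 TPM in *Pcgf1*-KO ESCs to 26.5 to 45.1 TPM in EBs, and *Cdx1* (below) made up much of the ESC sum. *T*, the brachyury factor that marks the streak, went from 3.57, 2.71, 2.68, 2.29 and 2.38 TPM to 0.418, 0.652, 0.465, 0.192 and 0.360 TPM and fell (log2 fold change -2.5 ± 0.38 (SE), limma adjusted p = 0.000101). *Wnt8a*, a Wnt ligand of the posterior epiblast, was at 0.160, 0.304, 0, 0 and 0.237 TPM in ESCs and at 6.86, 6.44, 11, 0.388 and 0.364 TPM in EBs (log2 fold change 3.66 ± 0.70 (SE), limma adjusted p = 0.000732), and the EB libraries of replicates 4 and 5 stayed below 1 TPM. *Cdx1*, a caudal homeobox gene and Wnt target, fell from 68.8, 139, 147, 109.5 and 101 TPM to 1.95, 1.27, 1.09, 5.16 and 4.74 TPM (log2 fold change -5.49 ± 0.32 (SE), limma adjusted p = 1.19e-08). *Eomes*, a T-box factor of streak and endoderm, fell with overlapping groups (log2 fold change -1.20 ± 0.34 (SE), limma adjusted p = 0.0113), a call lost without replicate 2 or without replicate 3. *Msgn1* and *Mesp1*, markers of nascent mesoderm, were listed at 0 in all 10 *Pcgf1*-KO libraries.

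Without *Pcgf1*, neural genes were also not far from the background. Of 18 in the list, 5 rose (27.8%), 2 fell (11.1%) and 11 did not pass the test, as 13021 of all 20594 genes did not, with a median log2 fold change of 0.53 (with replicates averaged within series, 4 rose and none fell). In the control 9 rose and 3 fell, with a median of 1.03. The median of the list was 0.98, 0.21, 0.79, 0.15 and 0.00 in the *Pcgf1*-KO pairs and 1.18, 1.45, 1.21 and 0.30 in the control pairs. It was lower without *Pcgf1* in each of the 4 shared numbers. Of the 18 differences from control, 11 were negative, and 1 passed the test in each direction. *Tubb3*, a neuronal tubulin, rose to 44.8 to 56.4 TPM (log2 fold change 1.66 ± 0.25 (SE), limma adjusted p = 8.58e-05). *Olig2*, a basic helix-loop-helix factor, rose from 15.3, 24.7, 23.8, 21.9 and 20.2 TPM to 32.7, 62.0, 45.7, 51.2 and 46.5 TPM (log2 fold change 1.16 ± 0.09 (SE), limma adjusted p = 2.5e-07). Its starting level was above that of the control ESCs (6.97 to 13.3 TPM). *Irx3*, an Iroquois homeobox gene, was at 0.412, 1.96, 1.62, 1.15 and 1.83 TPM in ESCs and at 1.09, 5.27, 6.45, 1.91 and 1.01 TPM in EBs and did not pass the test (log2 fold change 0.88 ± 0.36 (SE), limma adjusted p = 0.0685).

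Among 16 primitive endoderm genes, 7 rose (43.8%, against 16.8% of all genes tested) and 4 fell (25%, against 20%), with a median log2 fold change of 0.38 (6 and 3 with replicates averaged within series). *Gata6*, which drives this lineage, rose with overlapping groups from 0.305, 2.03, 2.23, 1.04 and 0.958 TPM to 1.34, 2.78, 5.37, 6.57 and 8.19 TPM (log2 fold change 1.80 ± 0.43 (SE), limma adjusted p = 0.00373). *Pdgfra*, a receptor on these cells, rose from 0.361, 0.412, 0.570, 0.404 and 0.374 TPM to 0.71, 0.990, 2.05, 2.21 and 2.05 TPM (log2 fold change 1.59 ± 0.34 (SE), limma adjusted p = 0.00167), and the forkhead gene *Foxq1* from 0.433, 0.659, 0.586, 0.647 and 0.385 TPM to 3.29, 2.54, 4.24, 4.62 and 6.56 TPM (log2 fold change 2.71 ± 0.43 (SE), limma adjusted p = 0.000154). These were low levels, at 8.19 TPM or less, and the highest *Gata6* was in EB replicates 4 and 5. *Gata4* and *Sox17*, which act with *Gata6*, did not pass the test (log2 fold changes 0.39 and 0.40), and the basement membrane genes *Lama1*, *Lamc1* and *Sparc* fell (-2.92, -1.26 and -1.82).

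Of 12 trophoblast genes, 1 rose (8.33%, against 16.8% of all genes tested) and 6 fell (50%, against 20%), with a median of -0.87. *Gata2* and *Krt7* were among those that fell (log2 fold changes -3.4 and -3.12), and *Fgfr2*, the FGF receptor, rose (2.39). Among 14 germ line and meiosis genes 2 rose and 2 fell (14.3% each, near the shares over all genes), with a median of -0.02. Of 16 epithelial genes 8 rose (50%) and 4 fell (25%), with a median of 0.27. *Cdh1* (E-cadherin) was at 249 to 650.1 TPM in ESCs and at 241 to 684 TPM in EBs (log2 fold change -0.01 ± 0.07 (SE), limma adjusted p = 0.941). *Epcam*, an adhesion molecule, rose (log2 fold change 0.96 ± 0.12 (SE), limma adjusted p = 2.37e-05). *Krt8*, a simple-epithelium keratin, fell from 54.2, 47.1, 39.5, 46.4 and 44.6 TPM to 28.5, 21.9, 24.3, 21.3 and 18.6 TPM (log2 fold change -1.02 ± 0.15 (SE), limma adjusted p = 8.1e-05), while its partner *Krt18* did not pass the test (0.19 ± 0.13 (SE), limma adjusted p = 0.282).

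Of the signalling lists, that of LIF and STAT3 held the most genes that fell. Of 12 LIF-STAT3 genes, 10 fell (83.3%, against 20% of all genes tested) and 1 rose (8.33%, against 16.8%), with a median of -2.5 (9 and 1 with replicates averaged within series). *Socs3*, the feedback inhibitor of STAT3, fell from 88.7, 178, 183, 189 and 179 TPM to 2.01, 2.94, 2.8, 8.43 and 5.95 TPM (log2 fold change -5.32 ± 0.21 (SE), limma adjusted p = 2.13e-10), and *Stat3* itself fell (-2.52 ± 0.09 (SE), limma adjusted p = 1.48e-10). *Gbx2*, a homeobox target of STAT3, was the one that rose (1.88 ± 0.17 (SE), limma adjusted p = 8.37e-07). Of 12 ERK feedback genes, 7 rose (58.3%, against 16.8% of all genes tested) and 3 fell (25%, against 20%), with a median of 0.57. *Dusp6*, the phosphatase that restrains ERK, rose with the replicate block (1.29 ± 0.08 (SE), limma adjusted p = 3.32e-08) and did not pass without it, and *Spry2*, an inhibitor of receptor signalling, fell (-1.39 ± 0.10 (SE), limma adjusted p = 7.84e-08). The list was thus mixed. Of 12 Wnt targets, 4 rose and 4 fell, 33.3% each (2 and 4 genes with replicates averaged within series). The feedback inhibitor *Axin2* (-1.28) and the transcription factor *Sp5* (-5.20) fell, and *Lef1*, which binds beta-catenin, rose from 2.11, 4.64, 4.01, 0.451 and 0.635 TPM to 26.6, 124, 92.7, 26.9 and 25.6 TPM (log2 fold change 4.71 ± 0.48 (SE), limma adjusted p = 2.57e-06). Of 12 genes of the NODAL pathway, 5 rose (41.7%) and 3 fell (25%). The antagonist *Lefty1* rose from 22.7, 33.4, 36.6, 32.6 and 31 TPM to 326, 284, 259, 248 and 243 TPM (log2 fold change 3.13 ± 0.18 (SE), limma adjusted p = 7.41e-09). The ligand of the pathway, NODAL, did not pass the test (-0.16 ± 0.08 (SE), limma adjusted p = 0.144), and its co-receptor *Tdgf1* fell (-0.86).

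Several lists that are not differentiation programmes also moved. Of 12 immediate early genes, which respond within minutes to growth factors and to handling, 11 fell (91.7%, against 20% of all genes tested), with a median of -3.57. *Fos* was at 564, 388, 375, 906 and 887 TPM in *Pcgf1*-KO ESCs and at 1.63, 2.12, 0.682, 3.84 and 3.87 TPM in EBs (log2 fold change -8.07 ± 0.21 (SE), limma adjusted p = 9.98e-12). The summed level of the list was 1827 to 2722 TPM in *Pcgf1*-KO ESCs and 238 to 434 TPM in EBs, and its part in other changes was not tested. Of 18 fibroblast genes that mark feeder cells, 13 fell (72.2%, against 20% of all genes tested) and *Twist1*, a factor of mesenchyme, rose. Their median was -2.25, with a summed level of 242 to 299 TPM in ESCs and 34.2 to 58.6 TPM in EBs. *Col1a1*, a collagen of fibroblasts, fell from 95.4, 179, 152, 123 and 126 TPM to 6.48, 4.83, 4.86, 4.30 and 3.49 TPM (log2 fold change -4.78 ± 0.18 (SE), limma adjusted p = 1.72e-10). ESCs were grown on feeders and EBs were not, and the part of feeder RNA in other genes that fell was not tested. Of 6 genes of the blood list 3 fell (50%, against 20% of all genes tested), and the haemoglobin genes Hba-a1, Hba-a2 and Hbb-b1 were listed at 0 in all *Pcgf1*-KO libraries.

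Of 16 glycolysis genes, 11 fell (68.8%, against 20% of all genes tested) and 1 rose (6.25%, against 16.8%), with a median of -0.58 (8 and 1 with replicates averaged within series). The fall of the list was small in the last library series. Its median was -0.71, -0.83, -0.86, -0.06 and -0.12 in the *Pcgf1*-KO pairs and -0.33, -0.66, -0.74 and -0.02 in the control pairs. The glucose transporters *Slc2a3* (-2.14) and *Slc2a1* (-1.13) were among those that fell. *Slc2a1* went from 441, 1109, 1117, 389 and 387 TPM to 151, 308, 277, 368 and 343 TPM, with the smallest changes in replicates 4 and 5. Of 10 DNA methylation genes, 5 rose (50%) and 2 fell (20%), against 16.8% and 20% of all genes tested. *Dnmt3l*, the cofactor of the de novo enzymes, rose from 314, 275, 265, 261 and 250.4 TPM to 643, 497, 621, 598 and 598 TPM (log2 fold change 1.11 ± 0.22 (SE), limma adjusted p = 0.00117). Of 12 p53 targets, 1 rose (8.33%) and 4 fell (33.3%), with *Cdkn1a* (p21) among the latter (-1.48). Of 7 genes of the 2-cell-like state, which a few ESCs enter at a time, 3 fell (42.9%) and none rose, with a median of -1.84 against 0.79 in the control. *Zscan4d* went from 8.91, 3.71, 0.826, 7.51 and 8.32 TPM to 3.52, 0, 3.35, 1.38 and 1.76 TPM without *Pcgf1* (log2 fold change -1.84 ± 0.73 (SE), limma adjusted p = 0.0596). In the control it went from 6.17, 0.852, 1.71 and 10.8 TPM to 7.09, 3.49, 13.7, 7.65 and 6.42 TPM. None of the 7 differences between the changes passed the test, and the median of the list was -1.94, -2.69, 0.00, -2.02 and -2.18 in the *Pcgf1*-KO pairs and 0.00, 1.27, 2.51 and -0.49 in the control pairs. The Zscan4 and Usp17l genes of this list are near-identical copies whose reads the counting may have split, so their values are uncertain. Of 21 Polycomb genes, 7 rose (33.3%, against 16.8% of all genes tested) and 4 fell (19%, against 20%), with *Kdm2b* (0.85 ± 0.10 (SE), limma adjusted p = 1.32e-05) and *Bcor* (0.80 ± 0.11 (SE), limma adjusted p = 3.86e-05), the partners of PCGF1, among those that rose. Both were no longer called without the replicate block.

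The largest changes among well-expressed genes (mean of at least 5 TPM in a *Pcgf1*-KO group, libraries not overlapping) were ranked over all genes tested. The largest increases included those of *Fgf5*, *Wt1*, *Vrtn*, *Enpp2*, *Car4*, *Tmem54*, *Slc35d3*, *Bcl11a* and *Rbbp8nl*, between 5.27 and 6.83 on the log2 scale. *Wt1*, a zinc finger factor known from kidney development, rose from 0.157, 0, 0, 0.0978 and 0.0582 TPM to 14.9, 38.5, 43.7, 5.84 and 8.34 TPM. *Enpp2*, the secreted enzyme autotaxin, rose from 0.461, 0.501, 0.297, 0.0819 and 0.293 TPM to 51.6, 80.5, 94.4, 12.3 and 13.6 TPM. In these genes the *Pcgf1*-KO ESC libraries were at 1.16 TPM or less, so the size of the fold depends on the pseudocount. The 10 largest decreases were those of *Fosb*, *Fos*, *Mirlet7f-1*, *Mir27a*, *Egr2*, *Cyr61*, *Edn1*, *S100a13*, *Dmgdh* and *Mir23a*. *Fosb*, *Fos* and *Egr2* are immediate early genes, and *Cyr61* and *Edn1* (endothelin) are secreted products of serum-responsive genes. *Cyr61* fell from 309.8, 415, 397, 339 and 326 TPM to 2.53, 7.68, 7.51, 8.90 and 6.63 TPM (log2 fold change -5.83 ± 0.19 (SE), limma adjusted p = 6.47e-11). *Dmgdh*, a mitochondrial enzyme of choline breakdown, fell from 19.1, 17.4, 16.6, 7.15 and 7.92 TPM to 0.0574, 0.448, 0, 0.263 and 0.185 TPM. *Mirlet7f-1*, *Mir27a* and *Mir23a* are short hairpin loci at 5.20 to 12.3 TPM, 8.38 to 24.8 TPM and 3.24 to 21.9 TPM in *Pcgf1*-KO ESCs of a poly(A) library, and their values are uncertain.

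The general change from ESCs to EBs was also read from genes chosen in other cells. In untreated cells of the RING1A/B point-mutant line of the series, 346 genes were higher and 198 lower in 2 EB than in 2 ESC libraries (log2 difference beyond 2, libraries not overlapping, mean of at least 1 TPM). Untreated cells of this line already carry the *Ring1A* point mutation, so they are not a wild-type reference. The genes were chosen on their change alone, so the 198 may include immediate early and fibroblast genes, whose part was not tested. The median log2 change of the 346 genes was 1.79, 2.12, 2.19, 1.61 and 1.62 in the 5 *Pcgf1*-KO pairs and 1.94, 2.04, 1.73 and 2.15 in the 4 control pairs. The 198 genes had medians of -2.49, -2.66, -2.58, -2.11 and -2.12 without *Pcgf1* and -2.77, -2.52, -2.58 and -2.8 in the control. The ranges of the genotypes overlap for both gene sets, and the *Pcgf1*-KO pairs 4 and 5 had the smallest changes. These are descriptions with no test.

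**Figure D4:**
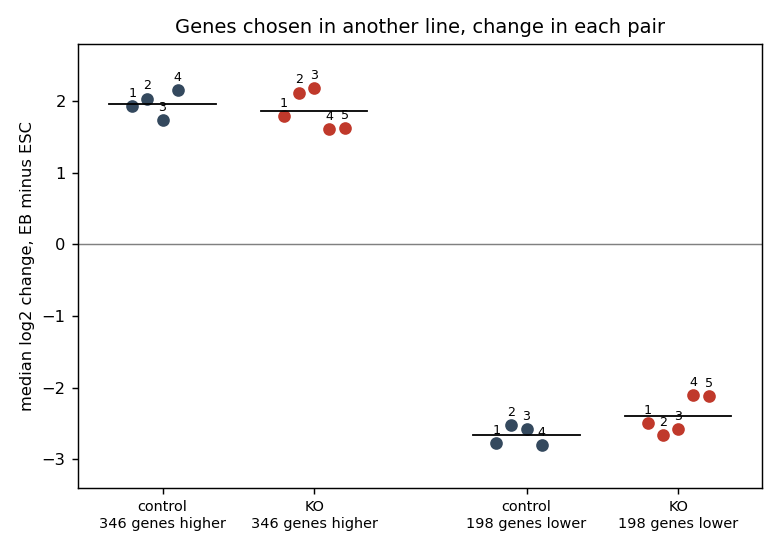
Median log2 change from ESCs to EBs in each same-numbered pair (points, with the replicate number) and the mean of the pairs (bars), for 346 genes higher and 198 genes lower in EBs of another line. Pcgf1-KO pairs reach 1.61 to 2.19 and -2.11 to -2.66, and control pairs 1.73 to 2.15 and -2.52 to -2.8.

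Where the change without *Pcgf1* differed from that of the control was tested as the difference of the 2 changes. With the replicate block, 172 genes (0.835%) had a more positive and 161 (0.782%) a more negative change. These calls depended on the fit. Without the block 0 and 1 genes passed, with 574 and 621 at an unadjusted p under 0.05, and with replicates averaged within series none passed in either direction, with 883 and 1037 at an unadjusted p under 0.05 and a lowest limma adjusted p of 0.107. Leaving out replicates 1, 2, 3 or 5 left 21, 16, 42 and 40 genes more positive and 19, 19, 32 and 45 more negative. Each of the 333 differences kept its sign under every alternative, but none of those named below is called without the block or with replicates averaged within series. The alternatives reuse the libraries in which these genes were called, so a kept sign is not separate evidence. Levels in the 4 groups are given for the main genes, since some started from different levels in the ESCs.

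**Figure D5:**
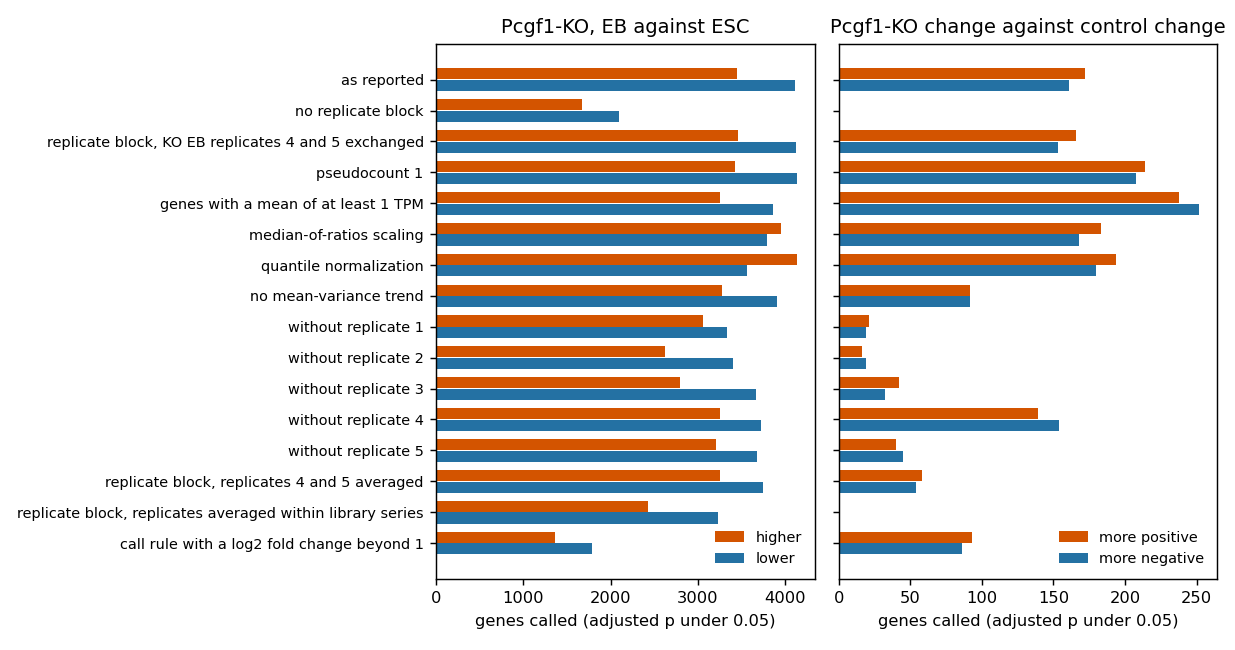
Number of genes called at an adjusted p below 0.05 under each setting, for Pcgf1-KO EBs against ESCs (left) and for the difference between the Pcgf1-KO and the control change (right). On the left every setting leaves at least 1357 genes in each direction, while on the right the 172 and 161 genes fall to 0 and 1 without the replicate block and to 0 with replicates averaged within library series.

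Among the 161 genes with a more negative change, 60 rose in both genotypes, 58 rose in the control and did not pass the test without *Pcgf1*, and 11 rose in the control and fell without *Pcgf1*, while 22 fell only without *Pcgf1* and 10 fell in both. Among the 172 with a more positive change, 48 fell in both, 70 fell in the control and did not pass the test without *Pcgf1*, and 19 fell in the control and rose without *Pcgf1*, while 24 rose only without *Pcgf1* and 11 rose in both. A smaller change in the direction of the control was thus the most frequent form.

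In the formative list, 12 of 18 differences were negative and 6 positive, with a median of -0.43, and 14 did not pass the test. The median change of the list was 3.44, 3.61, 3.63, 2.96 and 2.86 in the *Pcgf1*-KO pairs and 3.26, 3.83, 3.55 and 3.49 in the control pairs. It was higher without *Pcgf1* in numbers 1 and 3 and lower in 2 and 4. The 3 members called with a weaker rise were *Dnmt3b*, *Pou3f1* and *Zic2*. *Dnmt3b* was at 33.8 ± 9.23 TPM (mean ± SD, n = 4) in control ESCs and 82.2 ± 17.6 TPM (n = 5) in *Pcgf1*-KO ESCs, and at 1492 ± 785 TPM and 752 ± 612 TPM (n = 5 each) in the EBs. It started higher and ended lower without *Pcgf1*, and the difference of the log2 changes was -2.74 ± 0.55 (SE), limma adjusted p = 0.024. *Zic2* started over a similar range in the ESCs (15.8 to 35.4 TPM in control, 14.7 to 31.5 TPM without *Pcgf1*) and ended at 126, 263, 226, 131 and 133 TPM in control EBs against 43.4, 113, 90.2, 59.5 and 58.4 TPM in *Pcgf1*-KO EBs. Every *Pcgf1*-KO EB library was below the control EB library of its number (difference -1.13 ± 0.12 (SE), limma adjusted p = 0.00103). *Pou3f1* reached 115 to 421 TPM in control and at 34.0 to 227 TPM in *Pcgf1*-KO EBs (difference -2.13 ± 0.47 (SE), limma adjusted p = 0.0391). *Otx2* had the opposite difference (1.60 ± 0.31 (SE), limma adjusted p = 0.0226), with 13.8 to 37.4 TPM in control ESCs, 2.63 to 7.60 TPM in *Pcgf1*-KO ESCs and overlapping EB levels (76.9 to 116 TPM and 49.5 to 103 TPM).

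*Trh*, a peptide hormone precursor whose promoter is shown above, was at 122, 109, 88.2 and 81.1 TPM in control ESCs and at 1119.9, 336, 561, 393 and 391 TPM in control EBs. In *Pcgf1*-KO cells it was at 91.2, 115, 112, 63.0 and 63.5 TPM and 133, 91.3, 69.1, 89.0 and 84.9 TPM, and its change did not pass the test (log2 fold change 0.08 ± 0.22 (SE), limma adjusted p = 0.822). The difference of the changes was -2.34 ± 0.32 (SE), limma adjusted p = 0.00385. All *Pcgf1*-KO EB libraries were below all control EB libraries. *Epha1*, an ephrin receptor, rose in both genotypes but reached 20.1, 33.7, 35.1, 11.6 and 12 TPM without *Pcgf1* against 58.9, 66.8, 66.3, 20.1 and 19.2 TPM in the control (difference -2.16 ± 0.24 (SE), limma adjusted p = 0.00103), from 4.57 to 10.7 TPM and 1.78 to 5.19 TPM in the ESCs. *Gja1*, the gap junction protein connexin 43, went from 87.2 to 231 TPM to 113 to 562 TPM without *Pcgf1* and from 47.9 to 114 TPM to 286 to 705 TPM in the control (difference -1.89 ± 0.23 (SE), limma adjusted p = 0.00247). It thus started higher and rose less without *Pcgf1*. *Cldn6*, a tight junction claudin of the epiblast, was at 91.2 to 122 TPM in ESCs without *Pcgf1*, above the control ESCs (47.5 to 54.1 TPM), and at 123 to 155 TPM in *Pcgf1*-KO EBs, within the range of the control EBs (111 to 226 TPM), with a difference of -1.26 ± 0.17 (SE), limma adjusted p = 0.00327. Its own rise without *Pcgf1* was small (0.34 ± 0.11 (SE), limma adjusted p = 0.0278) and was lost with replicates averaged within series. *Trh*, *Epha1*, *Gja1* and *Cldn6* are among 19 genes whose difference passed the test whichever replicate was left out, and *Trh*, *Epha1* and *Gja1* were chosen for that after their values were seen.

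The 10 most negative differences among well-expressed genes (mean of at least 5 TPM in at least 1 of the 4 groups) were those of *Fgfbp3*, *Jph4*, *Nkx1-2*, *Tubb4a*, *Ramp2*, *Dnmt3b*, *Thy1*, *Hrh3*, *Irx3* and *Pcdh1*, from -3.4 to -2.53. *Tubb4a*, a neuronal tubulin, was at 31.2, 33.3, 38.4, 7.16 and 8.61 TPM in control EBs and at 4.30, 9.38, 4.92, 2.73 and 1.41 TPM in *Pcgf1*-KO EBs, from 2.29 to 4.08 TPM and 3.06 to 7.26 TPM in the ESCs. *Irx3* reached 5.85, 18.2, 31.2, 6.75 and 6.70 TPM in control EBs against 1.01 to 6.45 TPM without *Pcgf1* (difference -2.68 ± 0.53 (SE), limma adjusted p = 0.0231). *Thy1*, a surface glycoprotein of fibroblasts and other cells, was at 19.6, 26.7, 23.2, 18 and 16.4 TPM in control EBs and at 3.45, 3.59, 3.57, 2.49 and 2.55 TPM in *Pcgf1*-KO EBs, with no overlap (difference -2.71 ± 0.46 (SE), limma adjusted p = 0.0117). *Thy1* and *Dcn*, the proteoglycan decorin (difference -4.01 ± 0.94 (SE), limma adjusted p = 0.0474), belong to the fibroblast list, whose sum in EBs was 47.3 to 91.6 TPM for the control and 34.2 to 58.6 TPM without *Pcgf1*. Of the 18 differences of this list, 13 were negative and 5 positive, with a median of -0.47, and 2 passed the test. The collagen *Col1a1*, one of the 5, did not differ in its change past the test (0.13 ± 0.27 (SE), limma adjusted p = 0.839), and whether feeder cells have a part in *Thy1* and *Dcn* was not tested. *Nkx1-2*, an NK1 homeobox gene, fell from 3.19, 9.48, 12.1, 4.85 and 4.73 TPM to 0.269, 0.234, 1.00, 0.206 and 0 TPM without *Pcgf1* and did not pass the test in the control (log2 fold change -1.01 ± 0.53 (SE), limma adjusted p = 0.141). T likewise differed (-2.40 ± 0.55 (SE), limma adjusted p = 0.0438), with 0.833 to 1.66 TPM in the ESCs of the control and 0.349 to 2.96 TPM in its EBs. *Krt8* and *Krt18* had differences of -1.42 ± 0.22 (SE), limma adjusted p = 0.00695 and -1.30 ± 0.19 (SE), limma adjusted p = 0.00543, with *Krt18* at 52.2 to 99.1 TPM in control and at 37.7 to 55.6 TPM in *Pcgf1*-KO EBs.

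Genes with a weaker fall included naive and signalling genes. All 16 naive genes had a less negative change without *Pcgf1* than in the control, with a median difference of 1.16 in log2, against 0.00 for all genes tested, of which 10386 of 20594 had a positive difference, but 3 passed the test, namely *Nr0b1*, *Nr5a2* and *Fgf4*. The median log2 change of the list in the pairs was -1.70, -2.19, -2.78, -1.02 and -1.14 without *Pcgf1* and -2.94, -2.99, -3.80 and -1.97 in control replicates 1 to 4, less negative without *Pcgf1* in each of the 4 shared numbers. *Klf4* and *Tbx3* ended at 4.85 to 74.6 TPM and 20.9 to 84.7 TPM in *Pcgf1*-KO EBs against 3.54 to 12.4 TPM and 9.47 to 21.9 TPM in control EBs, with overlapping ranges, and their differences did not pass the test (1.78 ± 0.81 (SE), limma adjusted p = 0.305 for *Klf4* and 1.76 ± 0.48 (SE), limma adjusted p = 0.0818 for *Tbx3*). *Nr5a2*, a nuclear receptor that can activate *Pou5f1*, ended at 12.6, 19.9, 19.6, 20.4 and 22.1 TPM in *Pcgf1*-KO EBs against 5.08, 11, 7.5, 9.56 and 9.51 TPM in control EBs, with no overlap (difference 1.60 ± 0.28 (SE), limma adjusted p = 0.0144). *Nr0b1* ended above the control EBs in every *Pcgf1*-KO EB library (difference 1.39 ± 0.28 (SE), limma adjusted p = 0.0242).

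*Pdgfa*, the ligand of PDGFRA, fell to 44.0, 17.1, 17.8, 65.1 and 58.2 TPM in *Pcgf1*-KO EBs and to 8.52, 13.7, 7.26, 20.2 and 15.9 TPM in control EBs, from 86.4 to 151 TPM and 90.6 to 147 TPM (difference 1.55 ± 0.34 (SE), limma adjusted p = 0.0355). *Vegfa*, an angiogenic ligand, differed by 1.42 ± 0.27 (SE), limma adjusted p = 0.0188 and *Pcsk6*, a convertase that matures NODAL, by 1.36 ± 0.27 (SE), limma adjusted p = 0.024. The 10 most positive differences among well-expressed genes were those of *Ism2*, *Vax2*, *Sox21*, *Crtac1*, *Hal*, *Stra8*, *Prmt8*, *Calcoco2*, *Copz2* and *Zc3hav1*, from 2.05 to 3.60. *Sox21*, an SRY-related factor, was at 2.5, 5.24, 4.33, 2.55 and 2.8 TPM and 2.48, 4.45, 3.26, 4.24 and 4.27 TPM without *Pcgf1*, while it fell from 7.12, 14.6, 12 and 5.15 TPM to 0.607, 1.53, 1.79, 1.44 and 0.762 TPM in the control. In each of the 4 shared numbers the ESC library without *Pcgf1* was below the control one, although the ESC ranges overlap, and all *Pcgf1*-KO EBs were above all control EBs (difference 2.96 ± 0.38 (SE), limma adjusted p = 0.00295). *Prmt8*, an arginine methyltransferase, likewise started lower without *Pcgf1* (4.23 to 7.04 TPM against 14.6 to 21.2 TPM) and ended over a range that overlaps the control (3.05 to 6.31 TPM against 1.43 to 4.98 TPM), so its difference (2.13 ± 0.31 (SE), limma adjusted p = 0.00488) came with lower ESC levels. *Stra8*, a meiotic gatekeeper induced by retinoic acid, did not pass the test without *Pcgf1* (0.69 ± 0.32 (SE), limma adjusted p = 0.106) and fell in the control (-1.84 ± 0.35 (SE), limma adjusted p = 0.000501). *Dmrt1*, a factor of the germ line and testis, rose in both genotypes, to 76.8 to 219 TPM without *Pcgf1* and 43.1 to 103 TPM in the control (difference 1.07 ± 0.14 (SE), limma adjusted p = 0.00322), and the phosphate transporter *Slc20a1* rose without *Pcgf1* (0.71 ± 0.05 (SE), limma adjusted p = 7.84e-08) and fell slightly in the control (-0.17 ± 0.05 (SE), limma adjusted p = 0.0202). Both were chosen after their values were seen.

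Primitive endoderm genes mostly had a more positive change without *Pcgf1*. Of 16 genes, 13 did so, against 10386 of all 20594, with a median difference of 0.78, and *Gata6* (2.81 ± 0.63 (SE), limma adjusted p = 0.0403), *Pdgfra* (2.93 ± 0.50 (SE), limma adjusted p = 0.0117) and *Foxq1* (2.94 ± 0.63 (SE), limma adjusted p = 0.0334) passed the test. *Gata6* was at 0.361, 0.363, 0.355, 1.12 and 1.19 TPM in control EBs, below every *Pcgf1*-KO EB library. The median log2 change of this list was 0.22, 0.36, 0.27, 0.68 and 0.57 in the *Pcgf1*-KO pairs and -0.51, -1.37, -0.96 and -0.50 in the control pairs. For the epithelial list the medians were 0.12, 0.35, 0.11, 0.46 and 0.39 and 0.61, 0.92, 0.94 and 1.29, lower without *Pcgf1* in each of the 4 shared numbers. Gene by gene, 7 of its 16 differences were positive and 9 negative, with a median of -0.11. Its median gene started higher in *Pcgf1*-KO ESCs (29.9 to 38.5 TPM) than in control ESCs (19.4 to 21.9 TPM). In EBs the ranges overlapped (33.0 to 45.6 TPM without *Pcgf1* and 34.9 to 50.1 TPM in control).

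The study sorted Polycomb targets into 3 groups by RING1B binding in control cells, which rose from ESCs to EBs in Group 1, held in Group 2 and fell in Group 3. The groups come from control cells of the same study, so their direction in the control is not independent evidence. Of 153 Group 1 genes tested, 77 fell and 11 rose without *Pcgf1*, with a median log2 fold change of -0.93 (63 and 8 with replicates averaged within series). In the control the median was -1.37, and 104 of the 153 genes had a more positive change without *Pcgf1*, against 10386 of all 20594 genes. Of these, 10 passed the test of the difference (*C2cd2l*, *Cdkn2a*, *Itpka*, *Nab2*, *Nfil3*, *Nr5a2*, *Pdgfa*, *Prmt8*, *Vegfa* and *Zc3hav1*) and 1 was more negative (*Nkx1-2*). The median log2 change of Group 1 was -0.77, -1.03, -1.23, -0.41 and -0.53 in the *Pcgf1*-KO pairs and -1.17, -1.43, -1.41 and -1.04 in the control pairs, smallest in *Pcgf1*-KO replicates 4 and 5. Of 68 Group 3 genes, 48 rose and 2 fell, with a median of 1.62 against 2.21 in the control, and 51 had a more negative change without *Pcgf1*, against 10208 of all genes. In this group 6 genes passed the test of the difference as more negative and 1 as more positive. Of 1359 Group 2 genes, 262 rose (19.3%) and 204 fell (15%), near the 16.8% and 20% of all genes tested, with a median of 0.09 against 0.06 in the control. The shares that rose and fell were 7.19% and 50.3% in Group 1 and 70.6% and 2.94% in Group 3.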

How the data were processed

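Poly(A) RNA of ESCs and EBs was sequenced by the authors. Per the labels and the study's methods, reads were aligned to mm9 with STAR 2.5.2b and fold changes were computed by the authors with DESeq2. The deposited files hold TPM for 24391 gene symbols. The step to TPM is not described, so reads shared by near-identical or overlapping genes may have been split in ways that cannot be checked, and since TPM keep no read depth, no counting interval is given.

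TPM were log2-transformed with a pseudocount of 0.1 and fitted with limma 3.58.1 in R 4.3.3 (group means with the replicate number as a block, empirical Bayes with a mean-variance trend, Benjamini-Hochberg over 20594 genes). The change in *Pcgf1*-KO cells, the change in control cells and the difference of the 2 changes were tested. Data were also simulated with independent errors in each library, and changes were placed only in genes with a mean of at least 1 TPM. There, 74% of changes of log2 size 1 and 88% of those of size 2 were recovered in the *Pcgf1*-KO comparison, and 51% and 83% for the difference. The closeness of replicates within a series was not simulated, so these shares do not give the power in the real libraries. Replicate numbers come from the titles. 1 *Pcgf1*-KO EB library has number 4 in its title and 5 in its characteristics, and the title was used. Deviations from the group means correlated between same-numbered *Pcgf1*-KO ESC and EB libraries (r = 0.37 to 0.56 over 5 numbers), which meets the criterion of over 0.1 in every pair for use of the block. The other number of the same library series gave 0.32 to 0.46, more than the same number for 3 of the 4 ESC libraries that have such a partner, and numbers of other series gave -0.43 to 0.13. The correlations thus separate the library series and not the replicate numbers within a series.

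The members and gene lists were chosen with earlier results of these data known. Genes were named by 4 rules. These were the 10 highest and 10 lowest log2 fold changes without *Pcgf1* (called, mean of at least 5 TPM in a *Pcgf1*-KO group, libraries not overlapping), the 10 most positive and 10 most negative differences (called, and reaching a group mean of 5 TPM), genes the study names, and members of the lists as examples. Some genes that these rules select are not reported here. *Trh*, *Epha1*, *Gja1*, *Dmrt1*, *Shmt2* and *Slc20a1* were chosen after their values were seen. Lists are described by counts and medians without a test. Promoters are from RefSeq (GRCm38.p6), and a comparison of their CG content between gene sets is void because 72.2% of the genes tested have an entry. Alternatives were no block, exchanged replicates 4 and 5, *Pcgf1*-KO libraries alone, pseudocount 1, a filter at 1 TPM, other scalings, no trend, a log2 limit of 1 and each replicate left out, and 2 averages of close replicates added after the data were seen.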

Additional observations from a re-analysis of the deposited data

Results flagged for a closer look

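In groups of 5 libraries, a library whose gap to the nearest other library, on the log2(TPM + 0.1) scale, divided by the range of the group, exceeded Dixon's 95% critical value was listed. Of 302 gene and group combinations, 26 were listed, where chance alone lists about 1 in 20. Replicate 1, the only replicate of its library series, held 8 of these in ESCs and 10 in EBs. Replicate 1 of the *Pcgf1*-KO EBs was high for *Dppa3* (14 TPM, the others 3.15 to 4.80). Replicate 1 of the *Pcgf1*-KO EBs was low for *Cyr61* (2.53 TPM, the others 6.63 to 8.90), *Zc3hav1* (7.09 TPM, the others 18.6 to 24.4), *Nr5a2* (12.6 TPM, the others 19.6 to 22.1), *Axin2* (6.42 TPM, the others 12.9 to 15), *Lama1* (2.42 TPM, the others 7.55 to 10.7), *Tet1* (60.6 TPM, the others 181 to 281), *Vegfa* (10.2 TPM, the others 30.5 to 40.2), *Shmt2* (201 TPM, the others 297 to 315) and *Slc20a1* (167 TPM, the others 228 to 236). Replicate 2 of the *Pcgf1*-KO EBs was low for *Dnmt3l* (497 TPM, the others 598 to 643) and *Zscan4d* (0 TPM, the others 1.38 to 3.52). Replicate 3 of the *Pcgf1*-KO EBs was high for *Mir27a* (5.47 TPM, the others at 0). Replicate 5 of the *Pcgf1*-KO EBs was high for *Mir23a* (2.46 TPM, the others at 0). Replicate 1 of the *Pcgf1*-KO ESCs was high for *Nanog* (836 TPM, the others 605 to 660.2). Replicate 1 of the *Pcgf1*-KO ESCs was low for *Dnmt3b* (52.1 TPM, the others 83.3 to 96.7), *Hal* (13.1 TPM, the others 15.9 to 16.7), *Socs3* (88.7 TPM, the others 178 to 189), *Junb* (88.1 TPM, the others 189 to 226), *Fgfr2* (0.273 TPM, the others 0.763 to 0.951), *Shmt2* (184 TPM, the others 254 to 263) and *Slc20a1* (103 TPM, the others 138 to 146). Replicate 3 of the *Pcgf1*-KO ESCs was high for *Sox3* (2.65 TPM, the others 0.707 to 1.05) and *Pdgfra* (0.570 TPM, the others 0.361 to 0.412). Replicate 3 of the *Pcgf1*-KO ESCs was low for *Car4* (0 TPM, the others 0.356 to 0.693) and *Ramp2* (0.629 TPM, the others 1.91 to 2.48).

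The change from ESCs to EBs differed between *Pcgf1*-KO and control for 47 of the genes named, past a limma adjusted p of 0.05 for the difference of the changes. The difference, as log2 of the *Pcgf1*-KO change minus the control change, was positive for *Ism2* (3.60), *Vax2* (3.28), *Sox21* (2.96), *Crtac1* (2.67), *Hal* (2.64), *Stra8* (2.54), *Prmt8* (2.13), *Calcoco2* (2.08), *Copz2* (2.06), *Zc3hav1* (2.05), *Pdgfa* (1.55), *Nr0b1* (1.39), *Nr5a2* (1.60), *Fgf4* (1.03), *Otx2* (1.60), *Pcsk6* (1.36), *Gata6* (2.81), *Pdgfra* (2.93), *Foxq1* (2.94), *Olig2* (0.58), *Vegfa* (1.42), *Dmrt1* (1.07), *Shmt2* (0.55) and *Slc20a1* (0.88). It was negative for *Fgfbp3* (-3.4), *Jph4* (-3.26), *Nkx1-2* (-3.21), *Tubb4a* (-3.19), *Ramp2* (-2.96), *Dnmt3b* (-2.74), *Thy1* (-2.71), *Hrh3* (-2.68), *Irx3* (-2.68), *Pcdh1* (-2.53), *Pou3f1* (-2.13), *Zic2* (-1.13), T (-2.40), *Tcf7* (-0.70), *Spry1* (-0.64), *Krt8* (-1.42), *Krt18* (-1.30), *Cldn6* (-1.26), *Btg2* (-1.49), *Dcn* (-4.01), *Trh* (-2.34), *Epha1* (-2.16) and *Gja1* (-1.89). None of these differences passed the threshold without the replicate block or with replicates averaged within library series, with limma adjusted p values of at least 0.0671 without the block.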

How the results depend on the processing

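Of 151 genes examined singly, 122 were called in the *Pcgf1*-KO comparison, of which 103 were called under every alternative run, and 1778 of 1829 alternative values kept the call, with 51 no longer past the threshold. Of their 47 called differences from control, none was called under every alternative, and 373 of 657 values kept the call. No call changed direction, but the alternatives reuse the same libraries. List medians stayed within the spread of the pairs in 330 of 360 cases for the *Pcgf1*-KO change and in 319 of 336 for the difference.

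Without the replicate block, 1674 genes were higher and 2096 lower in *Pcgf1*-KO EBs, 2377 and 2761 in control EBs, and 0 and 1 had a more positive or more negative difference. The cause was not tested. With a log2 limit of 1 as well, the counts were 1357 and 1787, 1933 and 2481, and 93 and 86. For the difference, 92 genes in each direction passed without the mean-variance trend, 252 more negative ones with the filter at 1 TPM, 58 and 54 with replicates 4 and 5 averaged, and 0 and 0 with replicates averaged within library series, which leaves fewer samples. Leaving out each replicate gave 16 (without replicate 2) to 139 (without replicate 4) more positive and 19 to 154 more negative differences, and 2626 to 3253 higher and 3336 to 3726 lower genes in the *Pcgf1*-KO comparison. Exchanging replicates 4 and 5 of the *Pcgf1*-KO EBs gave 3465 and 4128, and 166 and 153 for the difference. The share of *Pcgf1*-KO calls that were higher was 45.6%, 51% with median-of-ratios scaling and 53.7% with quantile normalization, which moved the median of all genes by 0.05 and 0.08 in log2.

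With genes of the other line chosen at a log2 limit of 1, the mean of the pair medians was 1.03 in control and 0.91 in *Pcgf1*-KO for genes higher in EBs, and -1.63 and -1.41 for genes lower. With pseudocount 1 it was -2.46 in control for the latter. Calls of low genes rest on the pseudocount and on TPM of unknown depth.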

Other observations

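*Vrtn* and *Bcl11a*, among the largest increases without *Pcgf1*, did not pass the test of the difference from control. *Vrtn* (vertnin) rose from 0.135, 0.128, 0.304, 0.126 and 0.200 TPM to 35.8, 64.2, 59.4, 12.1 and 12.8 TPM, with a difference from the control change of 0.00 ± 0.45 (SE), limma adjusted p = 0.998. *Bcl11a*, a zinc finger repressor, reached 5.04, 11.9, 12, 1.85 and 2.57 TPM in *Pcgf1*-KO EBs and 9.16, 18.6, 18.7, 8.95 and 9.91 TPM in control EBs, and the difference of its changes was -1.28 ± 0.63 (SE), limma adjusted p = 0.345. In both genes the EB and ESC libraries of *Pcgf1*-KO cells did not overlap.

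For *Jph4* and *Pcdh1* every *Pcgf1*-KO EB library was below the control EB library of its number, and for *Calcoco2* and *Vax2* every one was above it. *Jph4*, a junctophilin of excitable cells, reached 3.96, 27.3, 29.5, 3.41 and 2.58 TPM in *Pcgf1*-KO and 17.6, 98.7, 89.2, 13.5 and 17.8 TPM in control EBs, from 0.487 to 1.85 TPM and 0.249 to 0.578 TPM in the ESCs. *Pcdh1*, a protocadherin, reached 17.8, 86.5, 87.1, 14.6 and 13.3 TPM and 43.9, 140.3, 147, 23.9 and 27.9 TPM, from 1.87 to 8.57 TPM and 0.802 to 3.06 TPM. *Calcoco2*, an autophagy receptor, fell to 17.7, 6.36, 4.22, 23.7 and 23.9 TPM without *Pcgf1* and to 7.24, 2.57, 1.68, 6.45 and 8.03 TPM in the control, from 64.0 to 107 TPM and 103 to 145 TPM. *Vax2*, a homeobox gene of the ventral eye, was at 4.14, 3.75, 3.11, 9.56 and 7.59 TPM in *Pcgf1*-KO ESCs and at 10.4, 9.02, 3.09, 34.4 and 31.4 TPM in EBs, and at 4.71, 4.13, 3.68 and 7.30 TPM and then 1.64, 2.35, 0, 4.25 and 3.70 TPM in the control. Its change without *Pcgf1* did not pass the test (1.28 ± 0.52 (SE), limma adjusted p = 0.0696). *Btg2*, an antiproliferative target of p53, fell without *Pcgf1* (-1.33 ± 0.24 (SE), limma adjusted p = 0.000431), from 61.1, 40.9, 47.3, 49.8 and 46.8 TPM to 24.4, 27, 32.9, 11.1 and 11.2 TPM, and was at 27.6, 17.9, 23.8 and 28.8 TPM and 26.3, 24.1, 39.9, 19.7 and 20.3 TPM in control ESCs and EBs (difference -1.49 ± 0.35 (SE), limma adjusted p = 0.0468). As for the other differences, none of these is called without the replicate block.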
